A study of Homo sapiens with 6 samples.

Results

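The genes described here are 10 regulators of the integrated stress response: the transcription factors ATF4, ATF3, ATF5, DDIT3, CEBPB and CEBPG, and the feedback and effector genes TRIB3, DDIT4, SESN2 and CHAC1. They were picked by gene symbol, out of 30818 gene symbols on the array, and every probe with one of these symbols is reported separately. Together they had 14 of the 47231 probes. A probe was kept for testing when its detection p, the rank of its signal among the negative control probes, was under 0.05 on at least 3 of the 6 arrays. By that filter 10 member probes, standing for 8 genes, were kept, and 4 probes were not, among them the only probes of SESN2 and CHAC1.

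The array read RNA of MDA-MB-231, an established human cell line from a triple-negative breast cancer, grown in serum-containing RPMI medium. They received either 25 µM riluzole, a sodium channel blocker that dampens glutamate release and is given in amyotrophic lateral sclerosis, or only its solvent DMSO (vehicle). Each group had 3 samples, each read on 1 Illumina bead array, and the purpose given for the series is to find the genes that differ between the treatments. The treatment lasted 24 hours by the sample labels and overnight by the series title. Nothing in the labels says that the 3 samples of a group came from separate cultures, so every p-value here rests on the spread among these 6 samples alone, and that spread may be technical.

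The integrated stress response begins when a kinase such as PERK, GCN2, HRI or PKR phosphorylates the initiation factor eIF2. General translation then drops, while the ATF4 messenger RNA is translated more, so that much of the control of ATF4 lies above the transcript level. ATF4 is a basic leucine zipper factor that pairs with C/EBP proteins on composite C/EBP-ATF elements and switches on genes of amino acid supply as well as its own feedback genes. A transcript array does not read eIF2 phosphorylation or ATF4 protein, and a bulk value cannot separate more transcript per cell from more cells that carry it.

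Each array detected 20516 to 20959 probes, with a median raw signal of 127 to 133, and arrays correlated at 0.991 to 0.994 within groups and 0.988 to 0.990 between groups (Pearson, across probes, which are not replicates). Of 9 markers of the cell line, 8 were kept, including VIM, CD44 and EGFR, whereas the matrix protein gene FN1 was detected on 1 vehicle and 1 riluzole array. The markers of luminal or HER2-amplified breast cells went both ways. ESR1 and PGR, the hormone receptors that define other breast cancers, and FOXA1 were detected on 0 arrays, and CDH1 on 1 vehicle array. EPCAM, ERBB2 and GATA3 (raw signal 210 to 254) were detected on all 6. Of the blood cell and endothelial markers, PTPRC, CD3D, VWF and CDH5 were detected on 0 arrays, and none of the 5 kept genes of these lists passed the test (limma, 2 of the 5 at unadjusted p under 0.05). In the fit across all kept probes 145 of 20788 passed an adjusted p of 0.05, 95 higher and 50 lower with riluzole.

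The promoters of the members are shown because several members are described as targets of ATF4 or of its partners. RefSeq windows of GRCh38.p14, running from 250 bases before each annotated start to 50 after it, were found for 10 of the 10 members, 19 windows in all. The core of the composite C/EBP-ATF element was searched as TGATGNAA on both strands. It lay in at least 1 window of CEBPG, CHAC1 and ATF3, so in 3 of 10 members, against 4.46% of the 27305 genes with a window and 3.62% of the 35116 windows. The members had more windows per gene on average than all genes, which gives them more room for a match of any motif. It was also found before ASNS, a well-known ATF4 target outside the member list. The match began 42 bases upstream of the second annotated start of CEBPG, 209 upstream of CHAC1, 191 upstream of ATF3 and 68 upstream of ASNS. Stretches of 60 bases around these matches follow, 5′ to 3′ on the gene's strand, with the match in capitals.
CEBPG, chr19:33374045-33374104, plus strand: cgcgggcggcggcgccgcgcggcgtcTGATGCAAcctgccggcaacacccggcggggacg
CHAC1, chr15:40953236-40953295, plus strand: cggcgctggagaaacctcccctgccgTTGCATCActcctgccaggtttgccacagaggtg
ATF3, chr1:212565190-212565249, plus strand: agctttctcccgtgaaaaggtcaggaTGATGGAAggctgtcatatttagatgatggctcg
ASNS, chr7:97872443-97872502, minus strand: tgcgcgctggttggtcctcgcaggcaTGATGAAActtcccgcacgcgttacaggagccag
CEBPG and CHAC1 held the same 8 letters, on opposite strands, while ATF3 and ASNS differed from them in the free sixth letter. A match describes the letters only, and its absence from a window says nothing of elements that lie elsewhere.

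The bases next to the start differed between members. The 120 bases before the start are given for ATF4 and the members of the ATF4 circuit DDIT3 and TRIB3, and for CEBPB before its second annotated start, with TATAAA and CCAAT (or ATTGG, its reverse complement) in capitals.
ATF4, chr22:39520439-39520558, plus strand: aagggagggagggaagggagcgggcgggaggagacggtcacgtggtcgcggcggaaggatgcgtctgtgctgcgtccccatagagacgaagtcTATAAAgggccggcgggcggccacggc
CEBPB, chr20:50190710-50190829, plus strand: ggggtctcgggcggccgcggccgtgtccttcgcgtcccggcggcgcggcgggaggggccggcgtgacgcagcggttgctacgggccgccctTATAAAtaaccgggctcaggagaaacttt
DDIT3, chr12:57520518-57520637, minus strand: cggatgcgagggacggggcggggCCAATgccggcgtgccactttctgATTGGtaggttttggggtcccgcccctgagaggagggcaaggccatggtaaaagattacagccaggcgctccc
TRIB3, chr20:381175-381294, plus strand: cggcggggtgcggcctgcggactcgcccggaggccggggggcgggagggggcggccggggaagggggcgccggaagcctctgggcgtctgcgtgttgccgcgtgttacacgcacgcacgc
ATF4 and CEBPB each had a TATA box, at 27 and 29 bases upstream, and ATF3 had TATAAA farther off, at 230 bases before its second start. TATAAA lay in windows of 14% of genes, and CCAAT in 39.7%, against 7 of the 10 members. The cAMP response element TGACGTCA was in 0 member windows and in 2.25% of genes. The TRIB3 windows held none of the 4 motifs.

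ATF4, the central factor of the response, rose with riluzole on both of its brighter probes. On probe ILMN_1672128 the raw signal was 11015, 9637 and 9610 on the vehicle arrays and 14234, 18385 and 18457 on the riluzole arrays, with a detection p of 0 on each. The groups did not overlap, and riluzole replicate 1 lay nearest to vehicle. After background correction and normalization the log2 level (mean ± SD, n = 3) was 13.26 ± 0.04 with vehicle and 14.07 ± 0.15 with riluzole, a 1.76-fold rise with a 95% interval of 1.47 to 2.11 (limma, adjusted p = 0.0294 over all kept probes). Probe ILMN_2358457 read 1085, 1320 and 890 with vehicle and 1861, 2296 and 1915 with riluzole, also without overlap. Its log2 level went from 9.94 ± 0.30 to 10.93 ± 0.07, a rise of 2.0-fold (interval 1.55 to 2.56, adjusted p = 0.0393).

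The dimmest ATF4 probe, ILMN_1783394, did not show this difference. Its raw signal was 206, 201 and 231 with vehicle and 186, 243 and 189 with riluzole, above background on all 6 arrays at detection p-values of 0.0013 to 0.0026. The groups overlapped, and the log2 fold change was -0.09 (interval -0.49 to 0.31, adjusted p = 0.862). Set against the brightest ATF4 probe in a fit of all 4788 further kept probes against the brightest probe of their gene, its log2 fold change was lower by 0.91 (95% interval of the difference -1.35 to -0.47), and this did not pass (adjusted p = 0.151). It passed without background correction (0.00419) and with an offset of 50 (0.0438). In that fit 0.209% of probes passed. The other bright probe differed from the brightest by 0.18 (-0.26 to 0.62, adjusted p = 0.905). These difference tests were added after the values were seen. The files give no probe sequences, so which ATF4 transcripts the 3 probes read is not known here.

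Of the other kept probes, those of ATF5 (ILMN_1669113), DDIT3 (ILMN_1676984), DDIT4 (ILMN_1661599), CEBPB (ILMN_1693014), CEBPG (ILMN_1716766) and TRIB3 (ILMN_1787815) had a detection p of 0 on every array, as did ILMN_2358457 of ATF4. The kept ATF3 probe (ILMN_2374865) had 0.0013 on vehicle replicate 2 and 0 elsewhere. Of the 10 kept member probes, 2 passed over all kept probes, both of ATF4 and both higher with riluzole, and 0 were lower. Among all kept probes 0.698% passed in either direction and 0.457% passed as higher. At an unadjusted p under 0.05 the member count was 5 of 10, against 15.6% of all kept probes. The riluzole arrays all lay above the vehicle arrays for 5 of the 10 probes, against 11.0% of all kept probes. The median log2 fold change of the 8 detected members, each on its brightest kept probe, was 0.46, and the median of the brightest probes of all 14887 genes was 0.00. Both ATF4 calls were lost in each of the 6 fits without 1 array. There the log2 fold change stayed between 0.75 and 0.90 for the brightest probe and between 0.86 and 1.16 for the other, with adjusted p-values of 0.0632 to 0.113 and 0.0510 to 0.119.

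**Figure D1:**
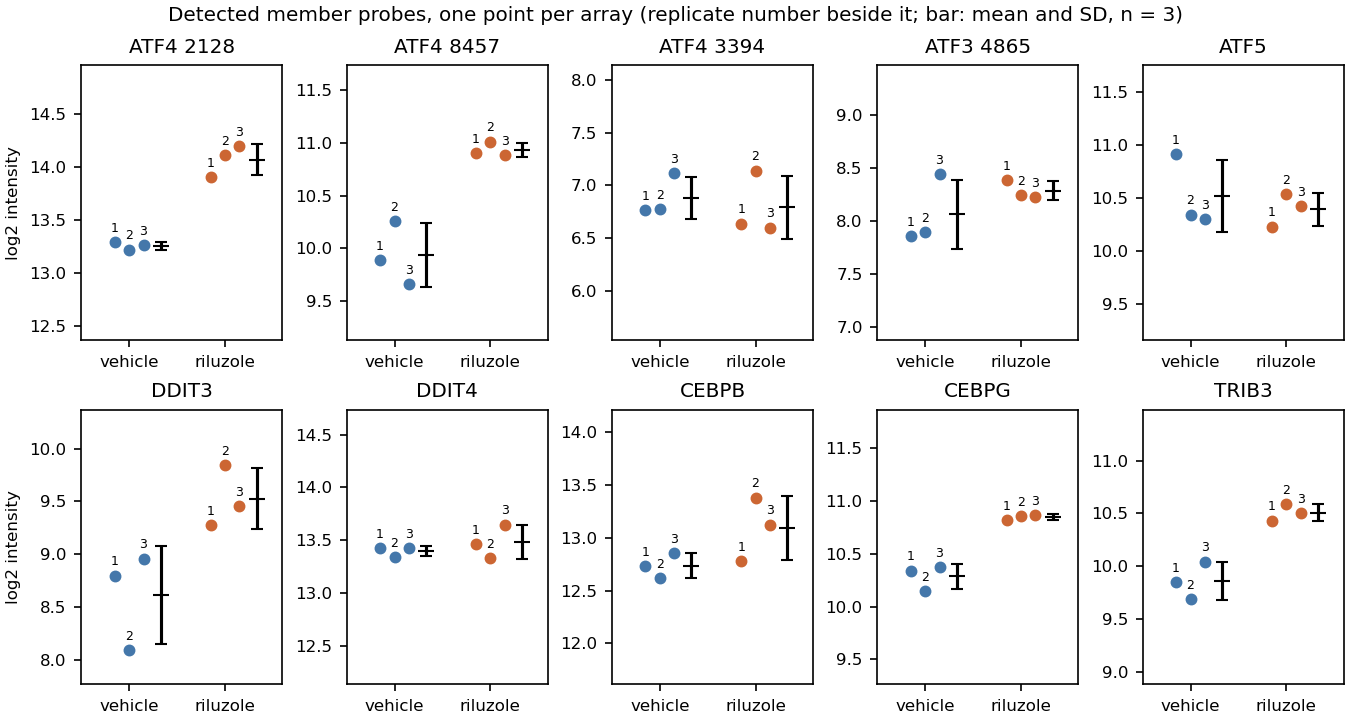
Normalized log2 intensity of the 10 kept member probes on each array (y axis, the same span of 2.6 log2 units in every panel), with vehicle in blue, riluzole in orange, the replicate number beside each point and a bar for the mean and SD of 3 arrays. Where a gene had several probes the last 4 digits of the probe number are given. The riluzole points lie above all vehicle points for the 2 brighter ATF4 probes, DDIT3, CEBPG and TRIB3.

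DDIT3, also called CHOP, is a C/EBP-family factor induced through ATF4 under prolonged stress. Its probe read 554, 366 and 588 with vehicle and 670, 1067 and 777 with riluzole. The lowest riluzole array was above the highest vehicle array, and vehicle replicate 2 and riluzole replicate 2 stood farthest apart. The log2 level was 8.61 ± 0.46 with vehicle and 9.53 ± 0.29 with riluzole, a ratio of 1.88 with an interval of 1.28 to 2.75 (limma, adjusted p = 0.131). DDIT3 therefore had a point estimate as large as that of ATF4 and the widest interval of the members. Its log2 fold change differed from that of ATF4 by 0.10 (-0.38 to 0.57).

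TRIB3, a pseudokinase that ATF4 and DDIT3 induce and that in turn restrains ATF4 activity, read 1060, 918 and 1134 with vehicle and 1366, 1736 and 1499 with riluzole. The groups did not overlap. The log2 level was 9.86 ± 0.18 with vehicle and 10.51 ± 0.08 with riluzole, a ratio of 1.57 (interval 1.28 to 1.91), which missed the threshold at an adjusted p of 0.0632. CEBPG, a C/EBP factor without an activation domain of its own that can pair with ATF4, read 1447, 1230 and 1399 with vehicle and 1757, 2061 and 1895 with riluzole. Its riluzole arrays were the tightest of all kept members, at 10.85 ± 0.03 log2 units against 10.29 ± 0.12 with vehicle. The ratio was 1.48 (1.24 to 1.75) and the adjusted p 0.0644. The composite core lay in a window of CEBPG, and also of ATF3 and CHAC1, but in none of ATF4, DDIT3 or TRIB3. Whether it bears on any of the changes was not tested. For TRIB3 and CEBPG the 3 riluzole arrays stood clear of vehicle, and the call turned on the processing: 5 of 11 other ways of processing put each of them past the threshold.

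**Figure D2:**
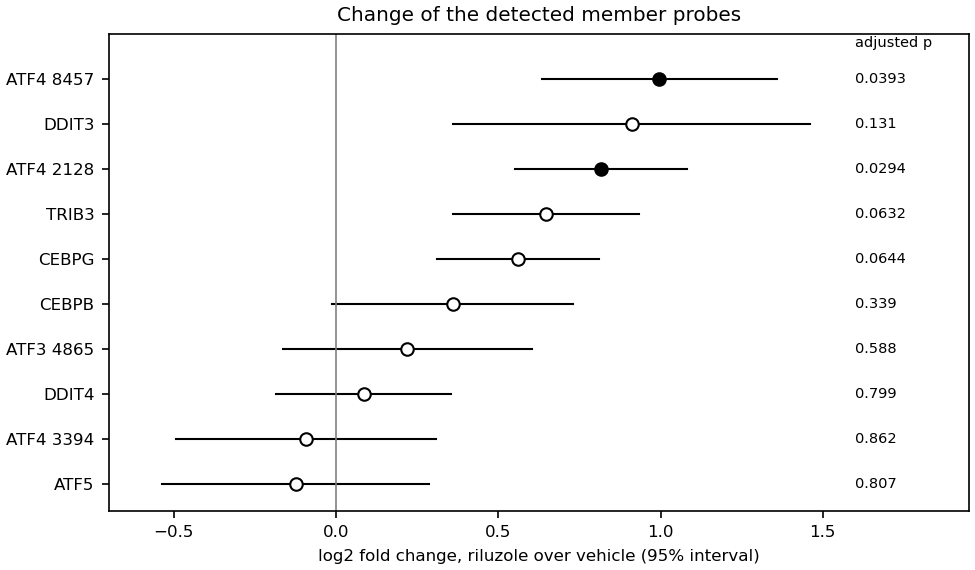
Log2 fold change of each kept member probe, riluzole over vehicle (x axis), with its 95% interval from the limma fit and the adjusted p over all kept probes at the right. Filled points are the 2 probes past the threshold, both of ATF4. The intervals of DDIT3, TRIB3 and CEBPG lie above 0, and those of CEBPB, ATF3, DDIT4, ATF5 and the dimmest ATF4 probe include it.

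CEBPB, a C/EBP factor of inflammatory and stress genes and another ATF4 partner, read 7367, 6393 and 7301 with vehicle and 6652, 11192 and 8789 with riluzole. Riluzole replicate 1 lay within the vehicle range and replicate 2 well above it, so the groups overlapped. The log2 fold change was 0.36 (-0.01 to 0.73, adjusted p = 0.339). ATF3, an early stress factor, had 1 kept probe of 3, which read 335, 331 and 438 with vehicle and 410, 414 and 385 with riluzole. Vehicle replicate 3 was higher than every riluzole array, and the log2 fold change was 0.22 (-0.16 to 0.60, adjusted p = 0.588). Its other probes (ILMN_1791346 and ILMN_1661109) lay below the mean of the negative controls on all 6 arrays, at raw signals of 78.2 to 95.2, and detection p was 0.731 or more.

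ATF5, a relative of ATF4 whose translation is controlled in a similar way, read 2135, 1398 and 1334 with vehicle and 1214, 1671 and 1427 with riluzole. Vehicle replicate 1 stood above the rest, and the other 5 arrays lay in 1 range. The log2 fold change was -0.12 (-0.54 to 0.29, adjusted p = 0.807), and without vehicle replicate 1 it was 0.07. DDIT4, or REDD1, an inhibitor of mTORC1 that ATF4 and hypoxia induce, read 12191, 10469 and 10813 with vehicle and 10421, 10812 and 12557 with riluzole. Its groups overlapped, and its log2 fold change of 0.08 had an interval of -0.19 to 0.35 (adjusted p = 0.799). A rise of the size estimated for ATF4, 0.82, lies outside the intervals of ATF5, ATF3, DDIT4 and CEBPB.

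The change of each member was also set against that of ATF4, on per-array differences of the brightest probes in a fit over all other genes. The log2 fold change was lower than that of ATF4 by 0.94 for ATF5 (95% interval -1.32 to -0.56, adjusted p = 0.000516). For DDIT4 it was lower by 0.73 (-1.05 to -0.41, 0.000733), for ATF3 by 0.60 (-1.02 to -0.18, 0.0111) and for CEBPB by 0.46 (-0.79 to -0.12, 0.0142). The difference did not pass for CEBPG, at -0.25 (-0.57 to 0.06), for TRIB3, at -0.17 (-0.49 to 0.16), or for DDIT3. For CEBPG it passed without background correction (0.0380), with array weights (0.0105) and without riluzole replicate 1 (0.0355). So 4 of 7 members differed from ATF4, against 94.6% of all genes, and every such comparison shares the ATF4 values. Because most genes passed, a pass sets a member apart from ATF4 but not from genes at large. These tests too were added after the values were seen, with the only member past the threshold as the reference. The intervals leave room for TRIB3 and CEBPG to have changed as much as ATF4 or clearly less. Each of the 4 differences passed in the 6 other ways of processing tried. With 1 array left out, ATF5 and DDIT4 passed in 6 of 6 fits, CEBPB in 5 (adjusted p up to 0.0601) and ATF3 in 4 (up to 0.0606).

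SESN2 and CHAC1 could not be assessed for a change. SESN2, a stress-induced sensor of leucine that restrains mTORC1, had 1 probe (ILMN_1751598), which read 127, 122 and 138 with vehicle and 134, 135 and 147 with riluzole. It was detected on 0 vehicle arrays and on 1 riluzole array, replicate 3, at a detection p of 0.0195. Its riluzole mean did not exceed the lowest signals counted as detected, so no fold is given, and an exact two-sided permutation test of the arrays gave p = 0.3, where 0.1 is the smallest p that 3 against 3 allows. CHAC1, which degrades glutathione and is a target of ATF4, ATF3 and DDIT3, had 1 probe (ILMN_1739241), which read 109, 103 and 95.7 with vehicle and 108, 130 and 106 with riluzole. It was detected on 0 of 6 arrays, with its lowest detection p, 0.142, on riluzole replicate 2. Levels below the array's background were not measured.

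**Figure D3:**
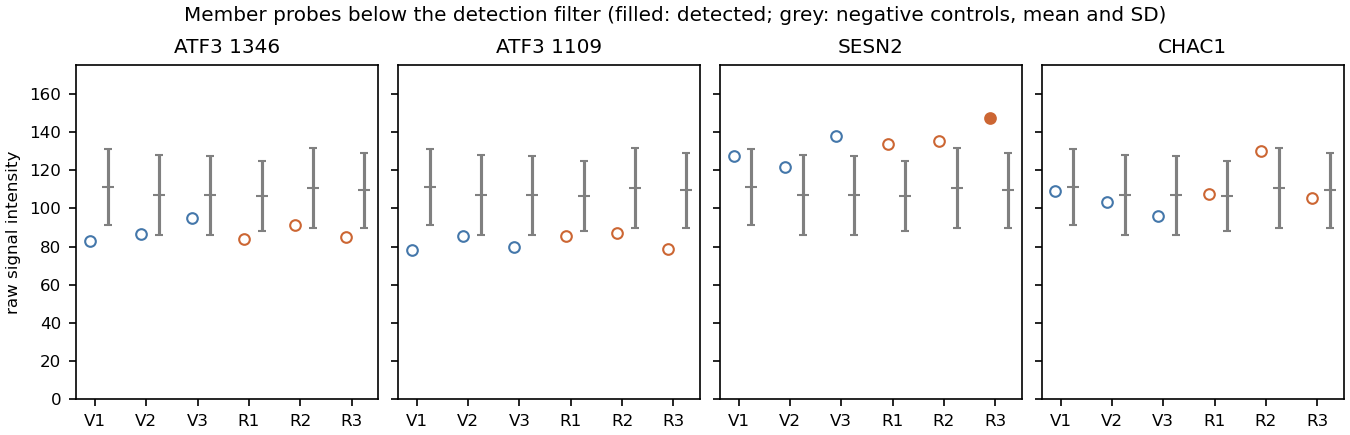
Raw signal intensity (y axis) of the 4 member probes below the detection filter on vehicle arrays 1 to 3 (V, blue) and riluzole arrays 1 to 3 (R, orange), beside the mean and SD of the negative control probes of the same array (grey). The only filled point, a detected signal, is SESN2 on riluzole replicate 3. The 2 ATF3 probes lie below the mean of the controls on every array.

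The members did not spread evenly over the replicates. On normalized log2 values, riluzole replicate 2 was the highest riluzole array for 6 of the 10 kept probes, against 33.6% of all kept probes. Riluzole replicate 1 was the lowest for 6 of 10, against 36.5%, and vehicle replicate 2 was the lowest vehicle array for 6 of 10, against 34.8%. On raw signals these counts were 8, 9 and 7 of 10, against 59.8%, 53.6% and 38.8% of all kept probes. These are descriptions of a few probes that share arrays, with no test.

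Genes near the members in the pathway were read on lists of their own, each gene on its brightest kept probe. Over all genes 0.719% passed on that probe and 15.4% had an unadjusted p under 0.05. The list of other ATF4 target genes held 43 genes, 40 of them on the array and 36 detected. Of the 36, 6 rose, 0 fell and 30 did not pass, with a median log2 fold change of 0.36. By sign alone 33 of the 36 were positive, and 20 had an unadjusted p under 0.05. The median log2 fold change over all genes was 0.00. The lists were chosen with earlier results of these data known, so their counts are descriptions and not an independent test. The count that rose was 0 to 2 with 1 array left out, 16 without background correction or with an intensity trend, and 3 with the authors' processed values. ADM2, a peptide of the adrenomedullin family, rose 2.74-fold, from raw signals of 157 to 191 up to 291 to 338 (adjusted p = 0.0132). The size of this rise depended on the background correction. In log2 units it was 1.46 as processed here, 1.15 with an offset of 50 and 0.79 without background correction. NUPR1, a stress-induced chromatin protein, rose 2.27-fold (0.0132), GPT2, which makes alanine from pyruvate in mitochondria, 1.79-fold (0.0215), and PHGDH, which starts serine synthesis, 1.85-fold (0.0271). ASNS, which makes asparagine, rose on both of its probes, 1.84-fold on the brighter (adjusted p = 0.0283) and by 0.71 log2 units on the other (0.0455).

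For the machinery upstream of ATF4 the count depended on the processing. All 20 genes of the list of eIF2 kinases, phosphatase subunits, eIF2 and eIF2B were detected, 0 passed in the limma fit, 3 had an unadjusted p under 0.05, and the median log2 fold change was 0.04. The heme-regulated kinase EIF2AK1 had a log2 fold change of -0.02, the endoplasmic reticulum kinase EIF2AK3 (PERK) -0.25 and the amino acid sensor EIF2AK4 (GCN2) 0.21. EIF2AK2 (PKR), named here after its values were seen, had the lowest value of the list, -0.26 (limma, adjusted p = 0.315). Its riluzole arrays all lay below the vehicle arrays. It was 1 of the 3 genes with an unadjusted p under 0.05, and the others, EIF2S2 and PPP1R15A, were higher with riluzole. PPP1R15A, or GADD34, the stress-induced phosphatase subunit that reverses eIF2 phosphorylation, went from raw signals of 2054, 1573 and 2078 to 2143, 2876 and 2481. Its arrays did not overlap, and its log2 fold change of 0.46 did not pass (0.13 to 0.79, adjusted p = 0.188). It passed without background correction (0.0394) and with an intensity trend (0.0335), and EIF2S2, the beta subunit of eIF2, passed without background correction (0.0473). These are transcript levels, and the activity of the kinases was not measured.

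Endoplasmic reticulum chaperones and genes of the ATF6 and XBP1 branches, the arms of the unfolded protein response beside ATF4, were without a call. Of 20 detected genes of 22, 0 passed and 0 had an unadjusted p under 0.05, with 15 positive, a median of 0.15 and a range of -0.05 to 0.28. For the chaperone HSPA5 (BiP) it was 0.26 in log2 fold change (adjusted p = 0.422). XBP1 gave 0.19 and 0.24 on its probes (0.429 and 0.351). Of the 6 genes listed downstream of DDIT3, 0 passed and 2 had an unadjusted p under 0.05, with a median of 0.02. PPP1R15A is also on this list, so that 1 gene passed there in the same alternatives.

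Of 29 detected basic leucine zipper factors of 41, 0 passed and 2 had an unadjusted p under 0.05, with a median of 0.05. In 7 of 11 other ways of processing 1 of them passed as higher, the repressor NFIL3, named here after its values were seen. For CEBPD, a stress-responsive C/EBP factor, the log2 fold change was -0.20 (adjusted p = 0.594), and CEBPA was detected on 0 arrays. Of 18 detected paralogs of the feedback genes and mTORC1 regulators, 0 passed and 0 had an unadjusted p under 0.05, with a median of -0.01. Beside TRIB3, the pseudokinases TRIB1 and TRIB2 had log2 fold changes of 0.01 and -0.23 (adjusted p = 0.976 and 0.351). SESN1, a sestrin chiefly known as a p53 target, had one of 0.17 (0.519), CHAC2 one of -0.03 (0.948), and SESN3 was detected on 1 riluzole array only. Whether the change of TRIB3 differs from that of its relatives was not tested.

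**Figure D4:**
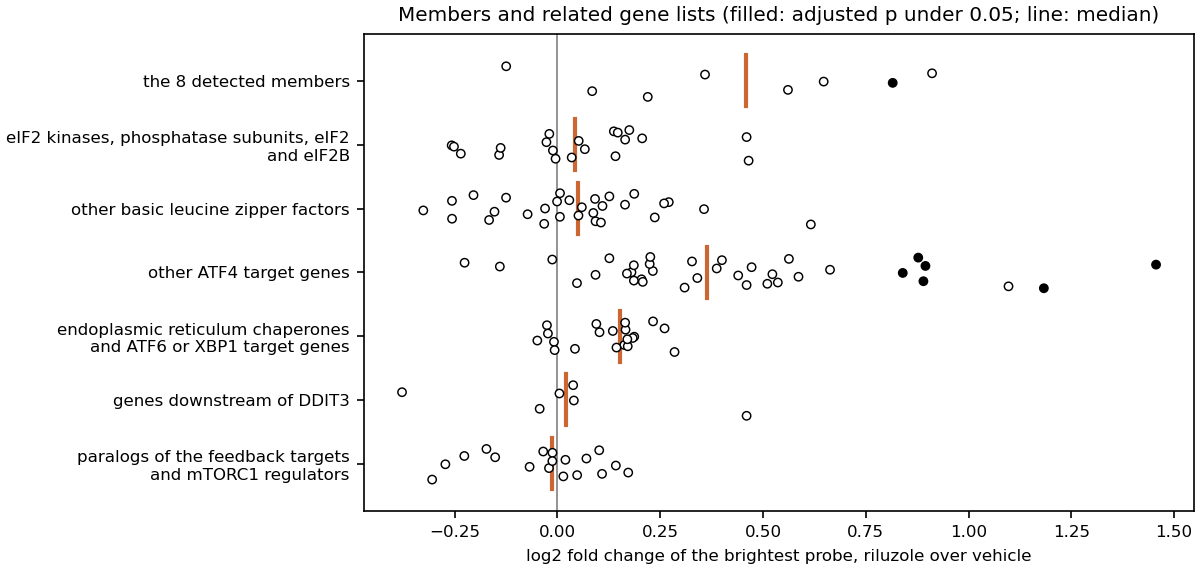
Log2 fold change of the brightest kept probe, riluzole over vehicle (x axis), for the 8 detected members and each list, 1 point per gene, filled where the adjusted p is under 0.05, with the list's median as an orange line. The list of other ATF4 targets has 6 filled points and a median of 0.36, and the other lists have none. A gene can be in more than 1 list.

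The genes whose arrays were most like those of ATF4 were found by the root mean square difference over the 6 arrays, after each gene's vehicle mean was subtracted, among 11950 genes with a current symbol. They were C17orf67 (0.065 log2 units), GPT2 (0.070), the mitotic kinesin KIF20B (0.084), ASNS (0.085) and the glycine transporter SLC6A9 (0.090). Each had a log2 fold change between 0.77 and 0.90 and passed the threshold. GPT2, ASNS and SLC6A9 are also on the list of ATF4 targets. The measure matches size as well as shape, so it favours genes with about the same fold change as ATF4.

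The calls of the members moved with the processing. DDIT3 passed in 3 of 11 other ways of processing, at adjusted p-values down to 0.00978, and in 0 of 6 fits without 1 array. The brightest ATF4 probe passed in 9 of 11, missing it with the authors' processed values (0.0747) and with the replicate number as a block (0.115). One of the 9 is the mean of the gene's 3 kept probes. Probe ILMN_2358457 passed in 6 of 9, missing it with the authors' processed values (0.0823), without a detection filter (0.0737) and with the block (0.0872). CEBPB, ATF3, ATF5 and DDIT4 passed in none of the 17.

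**Figure D5:**
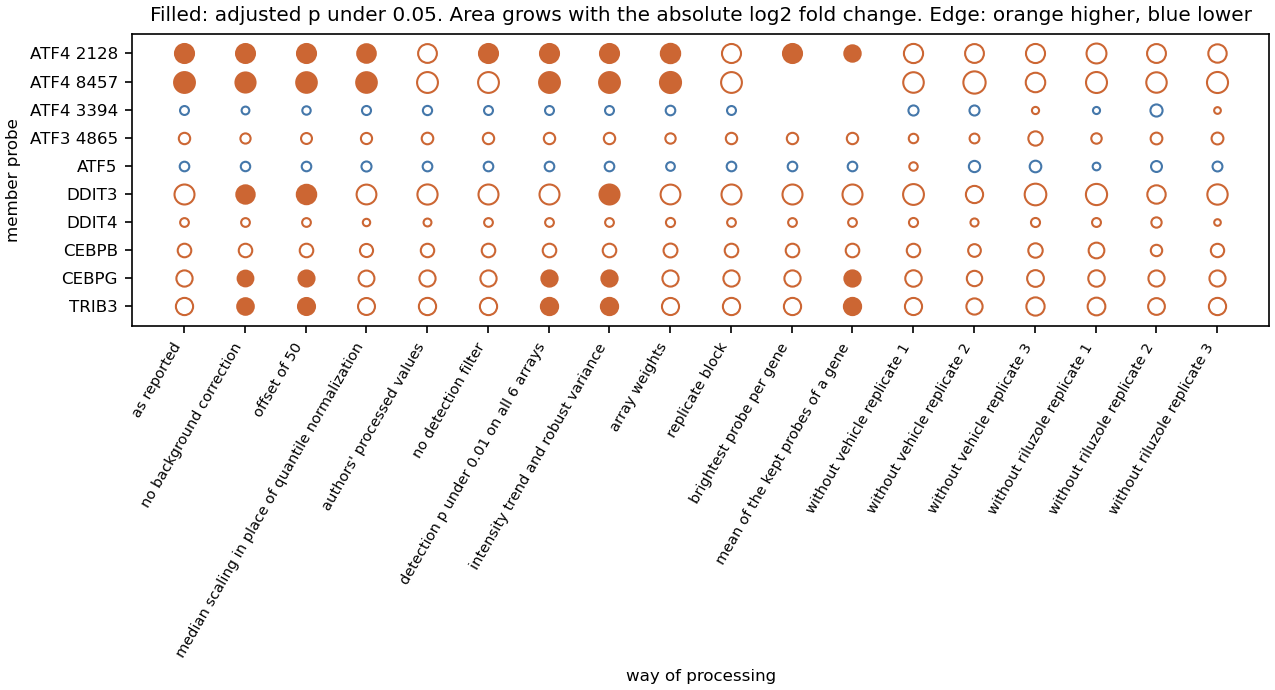
Each kept member probe (rows) under each way of processing (columns), filled where the adjusted p is under 0.05, with the area of the point growing with the absolute log2 fold change and an orange edge for higher or a blue edge for lower with riluzole. The brightest ATF4 probe is filled in the column as reported and in 9 others, the second in 6 others, the dimmest in none, and no member is filled in the 6 columns with an array left out. CEBPG and TRIB3 are filled in 5 columns each and DDIT3 in 3.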

How the data were processed

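The authors deposited, per the file headers, the average bead signal intensity of each probe on each array, linear and not normalized, with a detection p-value beside it. The authors also deposited processed intensity values, partly below 0, by steps not given in the sources used here. They served as an alternative, with values under 16 set to 16. In R 4.3.3 with limma 3.58.1, neqc was run without the 979 control rows, with background estimated through the detection p-values, an offset of 16, quantile scaling and log2. Of 47231 probes, 20788 with detection p under 0.05 on at least 3 arrays were kept. The 2 groups were compared by lmFit and eBayes across all kept probes, with no covariate, with Benjamini-Hochberg adjustment over all of them and a threshold of 0.05. Fold changes are on this background-corrected scale, where the offset draws those of dim probes toward 1. Those of dim probes can still be larger than without background correction, as for ADM2. Each list gene stood on its brightest kept probe. Symbols were updated through RefSeq names (GRCh38.p14, 4626 probes renamed). The fit was tested on simulated data with 50 probes changed by each of 4 known amounts. It called 29 and 26 of 50 at log2 changes of 1 and -1, but only 3 and 1 of 50 at 0.5 and -0.5. Of 20588 unchanged probes it called 3. Most changes of 0.5 were thus missed there, which limits what a probe that did not pass can show. The simulated noise was drawn independently for each probe and array, without array effects shared by probes. The simulated counts therefore need not hold for these arrays. The number of arrays, 3 per group, limits the precision. The labels do not say whether the replicate numbers pair the samples, and they were not used as pairs.

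The members and lists were chosen with earlier results of these data known. Named were all members, up to 5 genes past the threshold per list, 14 genes whatever their values (EIF2AK1, EIF2AK3, EIF2AK4, PPP1R15A, CEBPD, CEBPA, XBP1, HSPA5, ASNS, TRIB1, TRIB2, SESN1, SESN3 and CHAC2), marker genes, and the 5 genes most like ATF4. Genes named outside this rule are said to be so.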

Additional observations from a re-analysis of the deposited data

How the results depend on the processing

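Probes past the threshold numbered 145 over all genes and 2 among the members. The counts were 727 and 5 without background correction, 415 and 5 with an offset of 50, 758 and 5 with a robust, intensity-dependent variance, 405 and 4 with a stricter detection filter (p under 0.01 on all 6 arrays), 47 and 0 with the authors' processed values, and 78 and 1 without a detection filter. With the brightest probe of each gene the counts were 176 and 1, where ATF4, still called, stands on 1 probe. With the mean of the kept probes of a gene they were 197 and 3 (ATF4, CEBPG and TRIB3). With 1 array left out the counts ran from 7 to 23 over all genes and stayed at 0 for the members. The labels do not say whether the replicate numbers pair samples, and same-numbered arrays deviated from their group means with correlations of -0.13, -0.10 and 0.00. With the replicate number as a block the counts were 15 and 0, and the list of other ATF4 targets had 0 calls.

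The kept member probes kept their direction under the alternatives, except 2 probes whose groups overlapped. With 1 array left out, the dimmest ATF4 probe ran from -0.266 to 0.0211 and ATF5 from -0.234 to 0.0711. The difference between DDIT3 and ATF4 was -0.0590 without background correction and ran from -0.147 to 0.265 with 1 array left out. The causes were not tested. Signal near background limits SESN2, CHAC1 and 2 ATF3 probes.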

Other observations

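Some genes of the lists stood out by value without passing the threshold as processed here, and are named here after their values were seen. NFIL3, a basic leucine zipper repressor, read 708, 769 and 760 with vehicle and 954, 1175 and 1100 with riluzole, higher by 0.62 log2 units (limma, adjusted p = 0.0566). It passed in 7 of 11 other ways of processing, at adjusted p-values of 0.00335 to 0.0467. EIF2S2, the beta subunit of eIF2, was higher by 0.47 log2 units (adjusted p = 0.136, and 0.0473 without background correction). GDF15, a secreted stress cytokine on the ATF4 target list, read 178.4, 176.8 and 368.5 with vehicle and 286.5, 546.2 and 305.4 with riluzole. Its groups overlapped, and its log2 fold change of 1.10 had an interval of 0.02 to 2.18 (adjusted p = 0.314). SLC38A2, an amino acid transporter on the same list, had the lowest value of it, with a log2 fold change of -0.23 (0.351).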
